A study of Mus musculus with 5 samples.

Results

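Blood clotting, clot removal and the provisional matrix were followed through 9 genes while mouse bone marrow-derived macrophages became osteoclasts, the multinucleated cells that resorb bone. The genes were F13a1, Fn1, F3, F5, F7, F10, Thbs1, Plau and Plaur, out of 22180 genes that the array's annotation names singly. F13a1 and Fn1 were picked because both lay far lower late in the culture than at its start, so their differences are a description and carry no test. The other 7 complete the pathway. Each of the 9 genes had 1 row of its own on the array.

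Bone marrow of wild-type mice aged 10 weeks gave macrophages that were cultured on plastic with 20 ng/ml M-CSF, which keeps macrophages alive, and 30 ng/ml RANKL, which turns them into osteoclasts. RNA was collected on day 0 (labelled as macrophages), on days 1, 2 and 3 (labelled as differentiating) and on day 5 (labelled as mature osteoclasts), and 1 Affymetrix array was hybridised per day from 5 ng of total RNA. With 5 arrays and no replicate there is no spread between cultures, so no p-value is given, and the precision of each value is limited by there being 1 array behind it. No culture kept without RANKL was analysed here, so time in culture and differentiation cannot be told apart, and in such bulk RNA fewer cells of a type and less RNA per cell cannot be told apart either.

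Values are log2 expression as deposited, and differences are the later day minus the earlier one. A gene was called measured when its mean over the 5 arrays reached 4.89, the median over all rows, which held for 12049 genes. A difference of 1, which is 2-fold, was counted. As a yardstick of measurement noise, the day 5 minus day 0 differences of 2 rows of one gene disagreed with an SD of 0.59 over 500 genes. Array medians lay between 4.88 and 4.92. All 10 osteoclast markers examined were at least 2-fold higher at day 5 than at day 0 (median 5.88), while 2 of 9 macrophage markers were at least 2-fold lower and 7 were neither (median -0.47). The mean level of the 9 macrophage markers was 11.16 at day 0, 9.83 at day 1, 9.52 at day 2, 9.94 at day 3 and 10.21 at day 5. It was thus lowest on day 2, and the day 5 count does not show that dip.

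As background, clotting starts when tissue factor, a membrane protein encoded by F3, binds factor VII from plasma. The pair activates factor X, which with its cofactor factor V makes thrombin, and thrombin makes fibrin. Factor XIII, whose catalytic A subunit comes from F13a1, is a transglutaminase that cross-links fibrin strands and ties fibronectin to them. Urokinase (Plau), held at the cell surface by its receptor (Plaur), activates plasminogen, and plasmin dissolves fibrin. Macrophages are known sources of factor XIII A, fibronectin, urokinase and its receptor, whereas factors V, VII and X in plasma come mainly from the liver.

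The fibrin cross-linker F13a1, the matrix gene Fn1 and the urokinase pair Plau and Plaur were 4.11-fold to 32.1-fold lower at day 5 than at day 0. The initiating factors F3, F7 and F10 stayed near the level filter and within 2-fold of day 0, Thbs1 dipped and returned, and F5 lay below the filter. That made 4 of 9 genes at least 2-fold lower, 0 higher and 5 neither, and the median difference of the 9 was 0.00. Over all measured genes 6.56% were at least 2-fold lower, 6.78% at least 2-fold higher, and the median was 0.00. Since F13a1 and Fn1 were chosen on this contrast, nothing is read from the count beside that share. The same shares stand beside each list and marker count at day 5 against day 0.

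**Figure D1:**
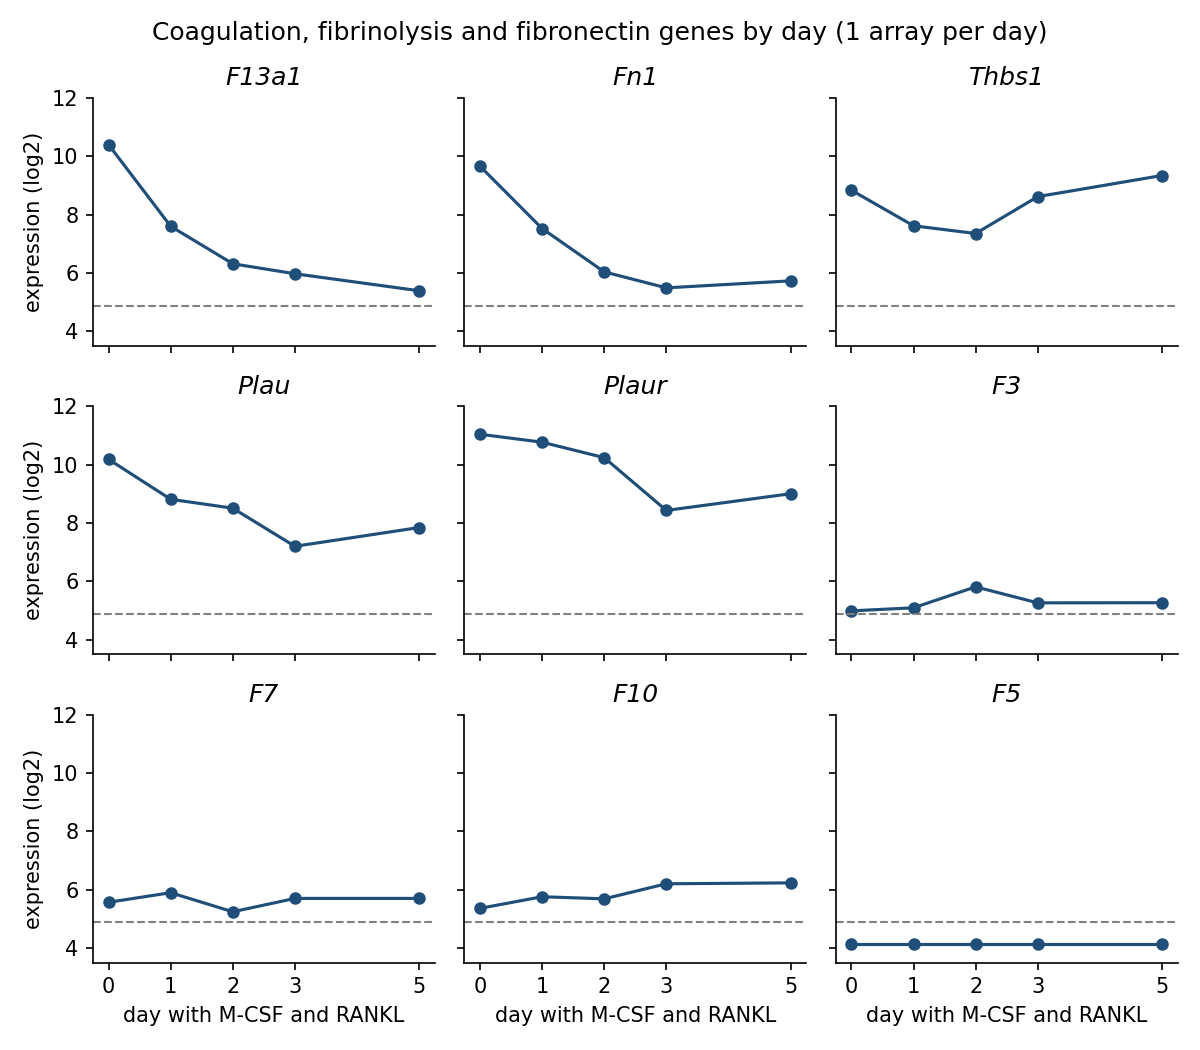
Log2 expression of the 9 genes (y axis, same scale in each panel) on days 0, 1, 2, 3 and 5 of culture (x axis), with 1 array per point and the level filter of 4.89 as a dashed line. F13a1 and Fn1 stand at 5.39 and 5.73 at day 5, against 10.40 and 9.66 at day 0, Thbs1 is lowest at day 2, and F5 is flat at 4.13.

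By step, most 2-fold differences of the 9 genes lay between days 0 and 1 and between days 2 and 3. In the step to day 1, 4 of 9 were at least 2-fold lower (4.17% of measured genes) and 0 higher (2.91%). In the step to day 2 the lower ones were F13a1 and Fn1 (0.556%), with 0 higher (2.46%). In the step to day 3 Plau and Plaur were lower (3.91%) and Thbs1 higher (2.08%). Between days 3 and 5 none of the 9 passed 2-fold in either direction, as few genes did (0.116% lower and 0.158% higher). From day 1 to day 5, which leaves out the day 0 array, 3 of 9 were at least 2-fold lower (F13a1, Fn1 and Plaur, 6.73% of measured genes) and 1 higher (Thbs1, 6.3%).

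**Figure D2:**
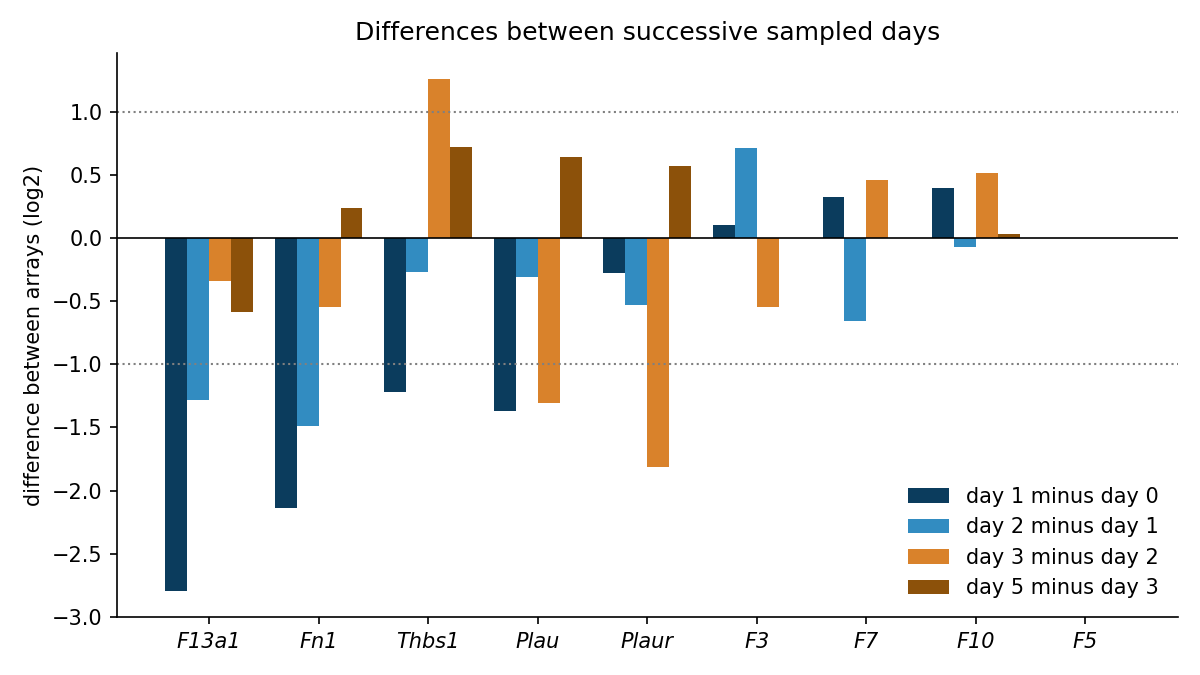
Difference in log2 expression between successive sampled days (y axis) for each of the 9 genes (x axis), with 1 bar per step and dotted lines at 2-fold. The lowest bars of F13a1 (-2.80) and Fn1 (-2.14) are the step to day 1, that of Plaur (-1.81) is the step to day 3, and Thbs1 turns upward in that step (1.26).

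F13a1 had the lowest day 5 minus day 0 difference of all measured genes. Its level was 10.40 at day 0, 7.60 at day 1, 6.32 at day 2, 5.98 at day 3 and 5.39 at day 5. Each sampled day was thus lower than the one before, and day 5 was 32.1-fold lower than day 0 (-5.01). The step to day 1 accounted for 55.9% of that log2 difference, the step to day 2 for 25.6%, the step to day 3 for 6.85% and the step to day 5 for 11.6%. Against day 1 in place of day 0 the difference at day 5 was -2.21. From day 0 to day 1 the difference was -2.80, and 10 measured genes had a lower one. Between days 3 and 5, when few genes moved, it was still -0.58, below all but 172 measured genes and larger in size than the row yardstick of 0.31 for that step. The day 5 level stood close to the filter, where the array's background handling compresses differences. The RefSeq table holds 2 transcription starts for F13a1, and the 250 bases before each are shown because no gene of the set differed more. Both are on the minus strand, written 5′ to 3′, at chr13:37050245-37050494 and chr13:37049214-37049463 (GRCm38.p6). Capitals mark matches, on either strand, to GAGGAA (a core bound by PU.1, the master factor of the myeloid lineage), TGANTCA (the site of AP-1 factors) or GGGCGG (the GC box of Sp1).
F13a1 upstream start: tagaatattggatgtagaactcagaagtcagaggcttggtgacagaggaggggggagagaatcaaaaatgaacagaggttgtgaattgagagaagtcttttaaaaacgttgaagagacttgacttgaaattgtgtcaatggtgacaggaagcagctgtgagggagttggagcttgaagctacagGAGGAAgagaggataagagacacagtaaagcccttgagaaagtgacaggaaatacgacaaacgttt
F13a1 downstream start: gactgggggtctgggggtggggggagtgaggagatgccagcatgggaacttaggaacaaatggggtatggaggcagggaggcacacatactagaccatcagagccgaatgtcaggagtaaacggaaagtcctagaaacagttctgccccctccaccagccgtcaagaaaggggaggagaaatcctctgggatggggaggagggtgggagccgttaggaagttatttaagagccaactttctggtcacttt
The upstream window holds 1 GAGGAA, from 66 to 61 bases before the start, and no match to the other letters, and the downstream window holds none of the motifs. Among 32851 RefSeq windows of the same length, 23.3% hold GAGGAA, 6.75% TGANTCA and 32.7% GGGCGG on either strand, so a match is common and is only a description of the letters.

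The other measured transglutaminases were within 2-fold of day 0 at day 5. In a list of 8 such genes 5 were measured, with F13a1 lower, 0 higher and 4 neither (median 0.00). Tgm2, the tissue transglutaminase that also cross-links matrix proteins, stood at 10.26 at day 0, 9.22 at day 1, 9.85 at day 2, 10.82 at day 3 and 10.70 at day 5. It was lowest on day 1 (-1.04 against day 0) and highest on day 3. Its day 5 value was 0.45 above day 0, inside the yardstick, but 1.48 above day 1. F13b, the carrier subunit of factor XIII, lay below the filter on all arrays, between 3.89 and 4.18.

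Fn1 encodes fibronectin, the adhesive glycoprotein of clots and provisional matrix. It measured 9.66 at day 0, 7.53 at day 1, 6.04 at day 2, 5.49 at day 3 and 5.73 at day 5. The level was lowest on day 3 and differed by only 0.24 between days 3 and 5. Day 5 was 15.2-fold lower than day 0 (-3.93) and stood at -1.79 against day 1. From day 1 to day 2 the Fn1 difference was -1.49, and only 10 measured genes had a lower one.

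F13a1 and Fn1 were the nearest to each other among the 9 genes with a 2-fold difference. Profiles were compared over the 5 arrays after each gene was centred on its own mean, and likeness was the root-mean-square (RMS) difference in log2. Between F13a1 and Fn1 it was 0.37, and no other measured gene lay closer to F13a1. After Fn1, the measured genes nearest to F13a1 were the fatty acid desaturase Fads2 (0.43), the monocyte chemoattractant Ccl2 (0.55), Ctla2a, a cysteine protease inhibitor (0.57), and the cyclin Ccnd2 (0.71). For Fn1 they were Fads2 (0.23), F13a1 (0.37), Ccl2 (0.45), Ccnd2 (0.53) and Ctla2a (0.54). Only 3 measured genes had a lower day 5 minus day 0 difference than Fn1, so the choice of neighbours was narrow. F13a1 and Fn1 were themselves picked for their large fall, so their nearness follows in part from that choice.

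Integrin chains of fibronectin receptors went in several directions. Of 10 receptor genes 9 were measured, with 3 at least 2-fold higher at day 5, 1 lower and 5 neither (median -0.07). Itgb3, the beta chain of the vitronectin receptor of osteoclasts, measured 4.25 at day 0, 4.32 at day 1, 8.90 at day 2, 10.47 at day 3 and 10.37 at day 5, a difference of 6.12. Its partner Itgav stood at 11.47 at day 5, against 10.05 at day 0 (1.42, or 0.82 against day 1). Itgav was highest on day 2 and Itgb3 on day 3, the day of the lowest Fn1. Itgb7, which pairs with the alpha 4 chain, was 1.24 above day 0 but only 0.03 above day 1. Itga8 was the lower one (-2.45), with 7.57 at day 0 and between 5.12 and 5.50 later. The classical fibronectin receptor chains Itga5 (-0.27), Itgb1 (0.14) and Itga4 (-0.58) were within 2-fold of day 0.

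**Figure D3:**
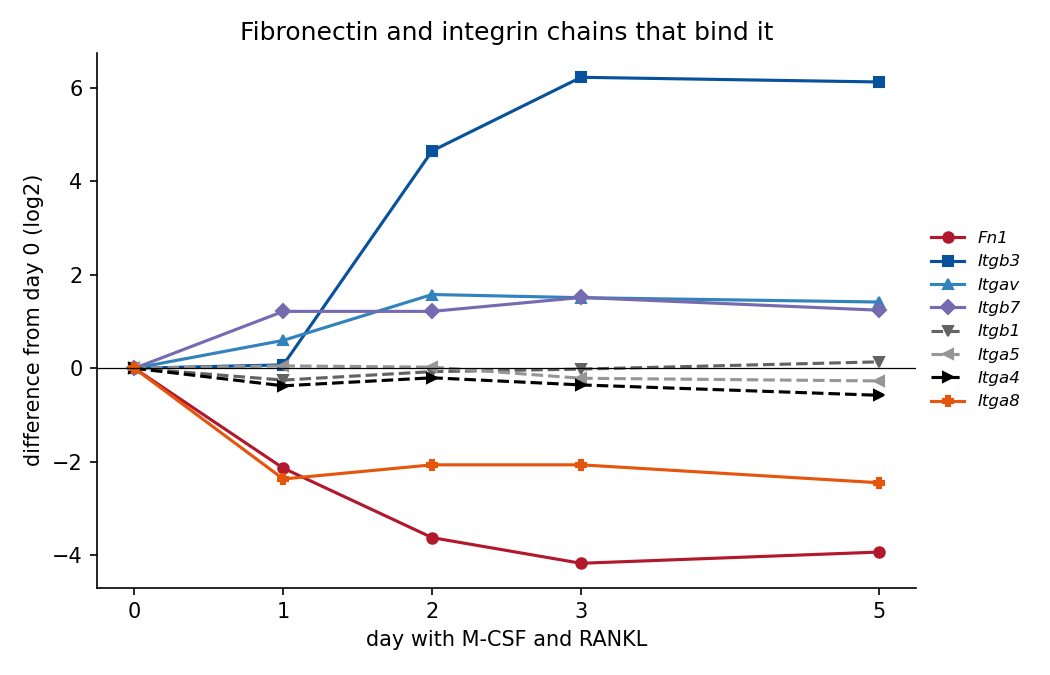
Difference from the day 0 array (y axis, log2) of Fn1 and 7 integrin chains on days 0 to 5 (x axis), 1 array per point. Itgb3 reaches 6.12 and Fn1 -3.93 at day 5, while Itga5, Itgb1 and Itga4 stay within 2-fold of day 0.

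The list of provisional and other matrix glycoproteins holds 12 genes with Fn1 itself, of which 11 had a row analysed here and 6 were measured. Fn1, Tgfbi and Emilin1 were at least 2-fold lower at day 5, 0 were higher and 3 were neither (median -0.87, or -0.14 against day 1). Those 3 were Ecm1 (-0.37), Fbln2 (0.08) and Lgals3bp (0.11). Since Fn1 was picked for its fall, nothing is read from this count or median. Tgfbi, an adhesive protein induced by TGF-beta, held 11.84 at day 1 and 11.37 at day 2 but 10.02 at day 3 and 10.04 at day 5, so its difference of -1.91 came later than that of Fn1. Emilin1, an elastic fibre protein, was at -1.38 against day 0 but only at -0.12 against day 1.

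Plau, which encodes urokinase, reached its lowest level on day 3. It measured 10.18 at day 0, 8.81 at day 1, 8.51 at day 2, 7.20 at day 3 and 7.84 at day 5. The difference came in separate steps, -1.37 to day 1 and -1.31 to day 3, with -0.31 between them and 0.64 after them. Day 5 was 5.06-fold lower than day 0 (-2.34), and -0.97 against day 1.

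Plaur, the urokinase receptor, held its level longer. It stood at 11.04 at day 0, 10.77 at day 1, 10.24 at day 2, 8.43 at day 3 and 9.003 at day 5. Most of the difference lay between days 2 and 3 (-1.81), a step in which 75 measured genes had a lower difference. Day 5 was 4.11-fold lower than day 0 (-2.04) and -1.77 against day 1. Plau and Plaur both stood higher at day 5 than at day 3, by 0.64 and 0.57, above the yardstick of 0.31 for that step. Their RMS difference was 0.40, and 47 measured genes lay closer to Plau than Plaur did. The 250 bases before the RefSeq start of Plaur, on the plus strand at chr7:24462233-24462482, are shown for comparison with F13a1.
Plaur: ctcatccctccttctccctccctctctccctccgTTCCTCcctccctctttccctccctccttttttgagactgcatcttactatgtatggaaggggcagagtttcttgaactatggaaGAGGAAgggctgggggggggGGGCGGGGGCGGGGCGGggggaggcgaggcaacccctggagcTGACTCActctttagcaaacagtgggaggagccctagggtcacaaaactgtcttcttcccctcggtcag
This window holds an AP-1 match from 69 to 63 bases before the start, matches to GAGGAA or its complement from 216 to 211 and from 131 to 126, and 3 GC boxes between 111 and 95, of which the last 2 share a base.

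In the plasminogen activation list of 4 genes, the 2 measured ones were Plau and Plaur, both lower. Other fibrinolysis genes were mostly below the filter. Plasminogen itself (Plg) lay between 3.95 and 4.52 and the tissue-type activator Plat between 4.34 and 4.41. Of 7 inhibitors of fibrinolysis 4 had a row analysed here and 1 was measured. That one, Serpinb2, the type 2 plasminogen activator inhibitor, was within 2-fold of day 0 (0.18). The plasminogen receptor list had 1 of 5 measured genes higher, 1 lower and 3 neither (median -0.17). Plgrkt, a transmembrane plasminogen receptor, was at 1.02 (0.29 against day 1), and Lrp1, the endocytic receptor that clears urokinase-inhibitor complexes, at -1.61 (-0.65 against day 1). The annexin pair S100a10 (-0.17) and Anxa2 (-0.04) hardly differed from day 0.

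Thbs1 encodes thrombospondin-1, a matricellular protein stored in platelets and made by macrophages. It followed a dip: 8.84 at day 0, 7.62 at day 1, 7.36 at day 2, 8.62 at day 3 and 9.34 at day 5. The lowest level was on day 2 and the highest on day 5. The step to day 1 was -1.22, which made Thbs1 the fourth of the 9 genes at least 2-fold lower there, with F13a1, Fn1 and Plau. The step from day 2 to day 3 was 1.26, the only 2-fold increment of any of the 9 genes between successive days. Day 5 was 0.51 above day 0, inside the yardstick, but 1.72 above day 1. The direction of Thbs1 thus depends on the starting array, and on day 3 it was still -0.22 against day 0.

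Of 7 thrombospondin and receptor genes 3 were measured, with 0 higher, 1 lower and 2 neither (median -0.16). The scavenger receptor Cd36 was the lower one at -1.35, with 11.35 at day 5 against 12.70 at day 0, but only -0.25 against day 1. Cd47, the other cell surface receptor of thrombospondin-1, was at -0.16. Thbs2, Thbs3, Thbs4 and Comp were below the filter.

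F3, tissue factor, was low with a small peak. It measured 4.99 at day 0, 5.09 at day 1, 5.81 at day 2, 5.26 at day 3 and 5.27 at day 5. Day 2 was the highest, 0.72 above day 1, against a row yardstick of 0.38 for that step. Day 5 was 0.28 above day 0. A peak under 2-fold on 1 array has no replicate behind it. The 250 bases before the RefSeq start of F3, on the plus strand at chr3:121723287-121723536, are shown as those of a gene whose range was under 2-fold (0.82).
F3: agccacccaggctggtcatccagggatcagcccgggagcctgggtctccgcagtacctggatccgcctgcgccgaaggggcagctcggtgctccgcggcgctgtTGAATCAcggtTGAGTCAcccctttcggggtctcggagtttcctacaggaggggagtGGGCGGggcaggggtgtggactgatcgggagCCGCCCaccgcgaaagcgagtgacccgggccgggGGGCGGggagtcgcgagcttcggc
They hold AP-1 matches from 146 to 140 and from 135 to 129 bases before the start and 3 GC boxes, and no GAGGAA on either strand. AP-1 letters were thus present before both Plaur and F3, and their part in the course of either gene was not tested.

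F7 and F10 encode factors VII and X and are direct neighbours in RefSeq, with 0 other genes starting between them. F7 measured 5.57 at day 0, 5.90 at day 1, 5.24 at day 2, 5.70 at day 3 and 5.70 at day 5. It moved up and down over a range of 0.65, and 6595 of the 12049 measured genes had a smaller range. F10 measured 5.36 at day 0, 5.76 at day 1, 5.69 at day 2, 6.20 at day 3 and 6.23 at day 5. Its last 2 days were its highest, and day 5 was 0.87 above day 0 (1.83-fold), past the yardstick but under 2-fold and 0.48 above day 1. The RMS difference of the pair was 0.33, and 6732 measured genes lay closer to F7 than F10 did. Both genes lay near the filter with small ranges (0.65 and 0.87). That number therefore does not tell whether the neighbours differ.

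F5, the cofactor of factor X, held 4.13 on every array and was the 1 gene of the 9 below the filter. Identical values on all 5 arrays occur for 1004 of the 22180 genes (4.53%), 145 of them measured, and median polish, the probe summary of RMA, is known to give exact ties. The flat value therefore says nothing of a small change.

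In the list of 14 coagulation factors 13 had a row analysed here and 5 were measured, with 1 higher, 1 lower and 3 neither (median 0.28). Beside F5, the rows of F2, F8, F9, F11, F12, F13b and Kng1 were below the filter. The higher gene was Vwf, the platelet-tethering factor of endothelial cells, with 7.69 at day 5 against 5.82 at day 0 (1.87, and 1.72 against day 1). Of the 2 measured endothelial markers Cdh5 was at -1.29 and Kdr at -0.21, while Tek (1.00), Emcn (0.40), Cldn5 (0.40) and Esam (0.33) lay above day 0 but were below the filter. The mean level of the 6 markers was 4.76 at day 5 against 4.66 at day 0, and the part of endothelial cells in the Vwf difference was not tested. All 4 enzymes of the vitamin K cycle list, which serves factors VII and X, were measured and within 2-fold of day 0 (median -0.23). Among fibrinogen-related genes only Fgl2 was measured (0.10).

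Anticoagulants went both ways, with 1 of 7 measured genes higher, 1 lower and 5 neither (median -0.15). Serpind1, the thrombin inhibitor heparin cofactor II, measured 4.61 at day 0, 4.87 at day 1, 6.26 at day 2, 7.53 at day 3 and 7.19 at day 5, which was 5.96-fold above day 0 (2.58). Thrombomodulin, Thbd, was at -1.03, but -0.10 against day 1. Tfpi, which blocks tissue factor with factor VII, was at -0.15 (-0.68 against day 1). Its relative Tfpi2 was at 0.83 (1.08 against day 1) and highest on day 3, at 1.75 above day 0. Procr (-0.89) and Pros1 (-0.85) were within 2-fold of day 0 at day 5, but at -1.67 and -1.54 on day 2. Anxa5 was at 0.13. F2r, the main thrombin receptor, was the gene of these clotting lists furthest above day 0, at 4.82 at day 0, 5.07 at day 1, 7.72 at day 2, 8.49 at day 3 and 8.54 at day 5 (13.3-fold, 3.73). The other measured protease-activated receptors, F2rl2 (0.00) and F2rl3 (-0.29), stayed near day 0. Over the 12 lists, 83 genes other than the 9 were listed, 76 had a row analysed here and 42 were measured. Of these 7 were higher (6.78% of all measured genes), 6 lower (6.56%) and 29 neither (median -0.04). The lists were chosen with earlier results of these data known, so nothing is read from these counts.

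**Figure D4:**
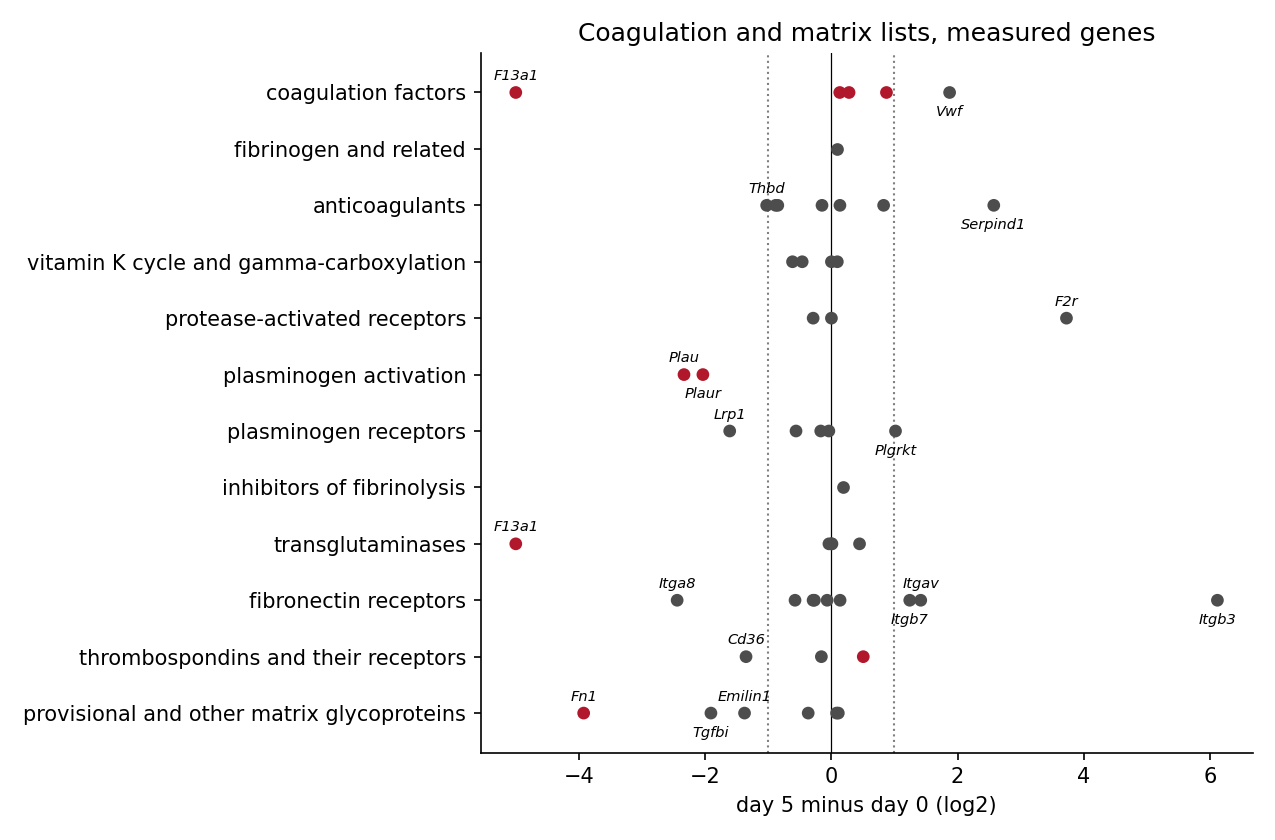
Day 5 minus day 0 differences (x axis, log2) of every measured gene in 12 lists (rows, y axis), with the 8 measured ones of the 9 genes in red, dotted lines at 2-fold and names for genes past it. F13a1 (-5.01) and Itgb3 (6.12) are the extremes, and Vwf, Serpind1 and F2r are the higher genes of the clotting lists.

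Several of the 9 genes are also expressed by other cells, so marker lists were set beside them. Platelets carry factor XIII A, thrombospondin-1 and factor V. Of 11 platelet and megakaryocyte markers 8 had a row analysed here and 5 were measured, 1 of them lower, 0 higher and 4 neither. The mean level of the 8 was 6.41 at day 0, 6.04 at day 1, 5.92 at day 2, 5.88 at day 3 and 5.96 at day 5. Itga2b (4.11 to 4.34), Gp5 (4.20 on all arrays) and Tubb1 (4.12 to 4.35) were below the filter. Gp6 (4.88 to 5.23) and Gp9 (5.69 to 5.82) were measured, close to the filter. Treml1, also measured, stood at 6.55 at day 0, 5.44 at day 1 and 5.90 at day 5 (-0.65, but 0.46 against day 1). Ppbp, a platelet chemokine, was at -1.84 (-0.50 against day 1), and Pf4, which macrophages also express, at -0.69. Of 5 monocyte markers with a row, 3 were measured and 2 were lower. These were Ccr2 (-1.84, and 0.00 against day 1) and Ly6c2 (-1.37, and -1.27 against day 1). The mean of the monocyte list was 6.23 at day 5 against 6.97 at day 0. The part of these cells in the F13a1 and Fn1 differences was not tested.

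Stromal cells make fibronectin and tissue factor. Of 8 stromal markers 3 were measured, with the list mean between 4.44 and 4.89 and highest on day 3. Col1a2, Col3a1, Lum, Pdgfra and Cxcl12 were below the filter, and Col1a1 lay between 5.06 and 5.38. Dcn, a matrix proteoglycan, measured 5.20 at day 0, 8.45 at day 1, 8.44 at day 2, 7.99 at day 3 and 7.13 at day 5. It was thus above day 0 on every later day, at 1.93 at day 5, where Fn1 was at -3.93. Against day 1 it was at -1.33 at day 5, where Fn1 was at -1.79. The other measured stromal markers, Col1a1 (0.28) and Pdgfrb (0.00), were not lower at day 5 than at day 1. The part of stromal cells in the Fn1 and F3 values was not tested. Neutrophils carry the urokinase receptor. In their list 4 of 7 measured markers were lower and 3 neither, and the mean was 6.78 at day 0, 6.89 at day 1, 6.05 at day 2, 6.29 at day 3 and 5.83 at day 5. The part of neutrophils in the Plaur difference was not tested. Hepatocyte markers, relevant to F7 and F10, had 1 of 5 measured, Ahsg, at a difference of 0.00, with Alb at 4.60 on all arrays.

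**Figure D5:**
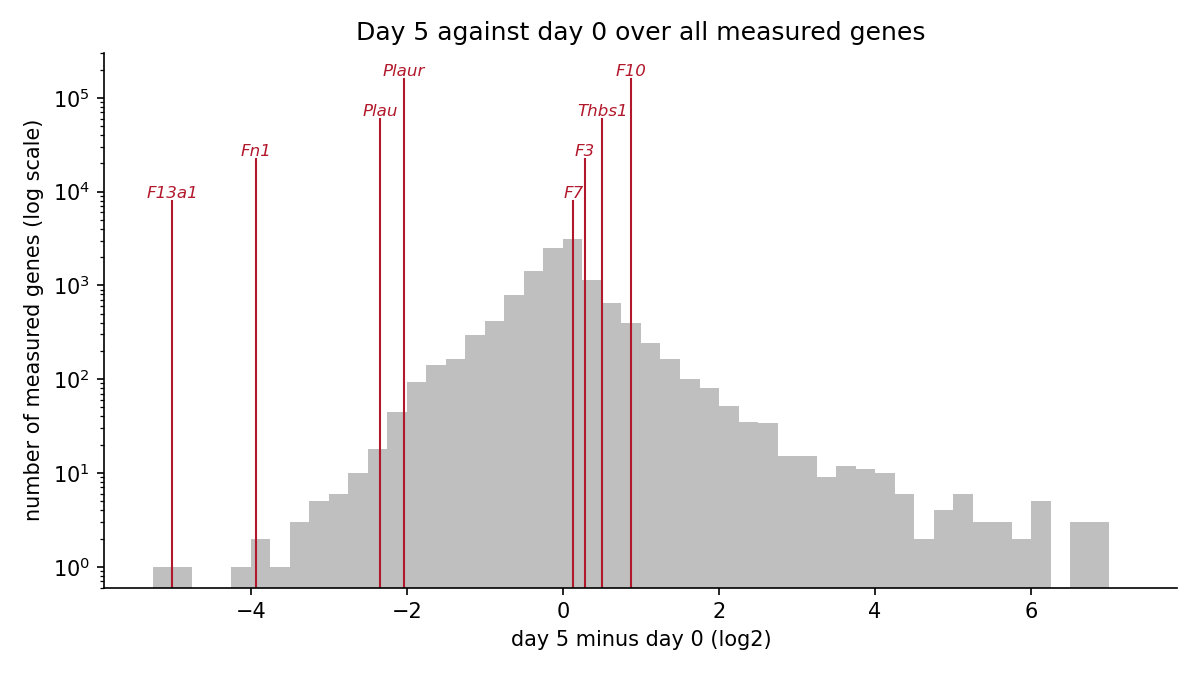
Number of measured genes (y axis, log scale) by day 5 minus day 0 difference (x axis, log2, bins of 0.25), with the 8 measured genes of the set as labelled red lines. F13a1, Fn1, Plau and Plaur lie in the lower tail between -5.01 and -2.04, and F7, F3, Thbs1 and F10 lie between 0.13 and 0.87.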

How the data were processed

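Expression of 9 genes was read from a table of 41345 rows and 5 arrays. The deposited table holds log2 values. They come, per the submitters' processing notes, from RMA in the oligo package under R 3.4.0. RMA makes array distributions alike, so a shift of all genes cannot be seen. The sources used here give neither a genome build nor a summary level. The platform annotation named 1 gene for 23521 rows and several for 1814, and 16010 rows are unnamed here. For a gene with several rows the one with the highest mean was used. Entrez identifiers of the 9 genes matched their RefSeq symbols in all 9 cases. Differences between single arrays were counted at 2-fold, with no test. Named from the lists were all measured genes past 2-fold at day 5 or else the largest difference, with some further members chosen after their values were seen. Nearest profiles skip predicted genes. Members and lists were chosen with earlier results of these data known. Promoter sequences are RefSeq's (GRCm38.p6), found for 6 of the 9 genes. Counting and profile matching were tested on simulated data. Alternatives covered scaling, row choice, days, size and level filters. Python 3.11.15, numpy 2.4.6, pandas 2.3.3 and matplotlib 3.10.9 were used.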

Additional observations from a re-analysis of the deposited data

How the results depend on the processing

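The count of 4 genes at least 2-fold lower at day 5 was also 4 with arrays centred on their medians or on reference genes. It was 4 too with day 3 in place of day 5, and at 1.5-fold or 4-fold. With day 1 in place of day 0 it was 3, as Plau missed it. Averaging the rows of a gene could not change it, as each of these genes had 1 row. Centring hardly could, as it moved F13a1 from -5.01 only to -4.97 (medians) or -5.00 (reference genes). F13a1 and Fn1 were picked for their large fall, and no share of all measured genes stands beside the 1.5-fold and 4-fold counts. Nothing is therefore read from the count staying at 4. The count of 0 higher genes became 1 with day 1 as the start (Thbs1) and 1 at 1.5-fold (F10). With day 1 in place of day 0 the differences were -2.21 for F13a1, -1.79 for Fn1, -0.97 for Plau and 1.72 for Thbs1. With day 3 in place of day 5 they were -2.98 for Plau and -0.22 for Thbs1. The other differences of single genes moved by less than the yardstick of 0.59. Of the 12 lists 1 had a median past 2-fold, plasminogen activation at -2.19, which is that of Plau and Plaur alone. It was -1.37 against day 1, -2.80 with day 3 in place of day 5 and -1.28 with no level filter. The median of the matrix glycoprotein list, which includes Fn1, was -0.87, but -0.14 against day 1 and 0.00 with no level filter. Several list medians rest on few genes, with 1 measured gene each for fibrinogen and related and for inhibitors of fibrinolysis. The level filter at the 75th percentile of rows moved the medians of 2 lists. There F13a1 alone gave -5.01 for coagulation factors, and transglutaminases stood at -2.28. No paired analysis was possible because each day has a single array. Signal near or below the level filter limits F3, F7 and F10, the late values of F13a1 and Fn1, and the day 0 values of F2r, Serpind1 and Itgb3.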

Other observations

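The nearest profiles of Plau, Plaur and Thbs1, looked up after their values were seen, are different sets of genes. Nearest to Plaur in RMS difference were the kinase Pask (0.11), the histone chaperone Asf1b (0.11), DNA ligase 1, Lig1 (0.11), the condensin subunit Ncaph (0.11) and the replication factor Gins2 (0.12). Lig1, for example, measured 10.44 at day 0, 10.06 at day 1, 9.83 at day 2, 7.98 at day 3 and 8.36 at day 5, with most of its difference between days 2 and 3, as for Plaur. Nearest to Plau were the phosphodiesterase Pde3b (0.16), the G protein subunit Gna15 (0.17), the cytokine Tnf (0.20), the glycosyltransferase Gcnt1 (0.21) and the activating receptor Trem1 (0.23).

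For Thbs1, whose course was a dip, the nearest were the G-CSF receptor Csf3r (0.07), Mturn (0.14), the formyl peptide receptor Fpr2 (0.15), Slfn5 (0.19) and the lipopolysaccharide-degrading enzyme Aoah (0.20). Csf3r measured 7.80 at day 0, 6.44 at day 1, 6.25 at day 2, 7.57 at day 3 and 8.11 at day 5. Its lowest value was on day 2 and its highest on day 5, as for Thbs1. Likeness over 5 single arrays is a description and carries no test.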
